A study of Mus musculus with 8 samples.

Results

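The miR-218 family comprised 3 mature miRNA names in the Argonaute-bound small RNAs (R-sRNAs) of mouse brain, the guide miR-218-5p (mmu-miR-218-5p) and the passenger arms miR-218-1-3p (mmu-miR-218-1-3p) and miR-218-2-3p (mmu-miR-218-2-3p). Members were all rows of the normalised read table that carried one of these names, which gave 202 distinct read sequences of 47204 and 3 names of 895. Of the 202 sequences, 183 were named miR-218-5p, 8 miR-218-1-3p and 11 miR-218-2-3p. Every library came from 1 female mouse, with ages described as 6 or 8 months for the set of animals and as 6 months for this comparison, and the age of the single animals was not used here. The labels number 4 replicates per genotype, and the methods of the study name 4 mice of each. Where this comparison is described, 3 het mice are mentioned, and its figure is said to average triplicate samples. All 8 mice carried the 5XFADtg transgene, which drives mutant human amyloid precursor protein and presenilin from a neuronal promoter on a mixed C57BL/6J and SJL background. The 4 mice labelled het were 5XFADtg Rubicon+/-, with 1 functional copy of Rubicon, a negative regulator of autophagy, and the 4 labelled ko were 5XFADtg Rubicon-/-. Cortex and hippocampus were lysed together, Argonaute proteins were captured with a GW182 peptide, and the bound RNA of guide length was sequenced, so no mouse without the transgene and no wild-type Rubicon mouse entered the comparison.

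miR-218-5p is made from a pair of hairpins that lie in introns of Slit2 and Slit3, genes of secreted axon guidance cues whose receptors are the Robo proteins. It is best known in motor neurons of the hindbrain and spinal cord and is also present in forebrain neurons. Argonaute normally retains the guide strand of the hairpin duplex and discards the other, and bases 2 to 7 of the retained strand, the 6mer seed, select the mRNAs it represses. A read that starts 1 base earlier or later than the annotated end therefore carries a different seed, whereas changes at the 3′ end leave the seed as it is.

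The mature sequences are shown because the guide is common to both hairpins and the passenger arms are not. They were taken from RefSeq (GRCm38.p6), with bases 2 to 8 in capitals.
miR-218-5p: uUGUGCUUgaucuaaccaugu
miR-218-1-3p: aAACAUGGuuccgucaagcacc
miR-218-2-3p: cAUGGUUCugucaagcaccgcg
The hairpins are shown with both mature arms in capitals, since the bases that follow the 5p arm tell the loci apart.
Mir218-1: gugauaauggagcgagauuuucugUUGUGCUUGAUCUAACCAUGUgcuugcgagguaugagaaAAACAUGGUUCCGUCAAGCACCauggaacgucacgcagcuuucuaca
Mir218-2: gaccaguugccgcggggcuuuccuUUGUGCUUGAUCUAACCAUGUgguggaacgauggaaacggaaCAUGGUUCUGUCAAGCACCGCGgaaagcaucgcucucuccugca

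In GRCm38.p6, Mir218-1 lies on the + strand at chr5:48223942-48224051, within intron 14 of the Slit2 transcript ENSMUST00000173107.7. Its 5p arm is at chr5:48223966-48223986 and its 3p arm at chr5:48224005-48224026. Mir218-2 lies on the + strand at chr11:35616816-35616925, within intron 14 of the Slit3 transcript ENSMUST00000069837.3, with its 5p arm at chr11:35616840-35616860 and its 3p arm at chr11:35616882-35616903. Neither hairpin overlapped an exon of its host, and both hosts are transcribed on the same strand as the hairpin.

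Depth ranged from 509839 to 19878054 reads per library, and the 2 deepest libraries, ko 1 and ko 2, were the only ones above 5000000 reads. The neuronal miRNAs checked against the tissue label were abundant, with 6 names summing to between 180602 and 283660 CPM (reads per 1000000 reads of the library), whereas the 4 miRNAs of hindbrain and spinal cord summed to 6.86 to 125.5 CPM. The genotypes were compared over 463 miRNAs with limma, and 6 passed at an adjusted p of 0.05, each with its lower mean in ko. All 6 belonged to the 8 listed miRNAs of olfactory and epithelial cells, whose sum ranged from 2567 to 9762 CPM in het and from 203.2 to 1829 CPM in ko. This list was chosen with earlier results of these data known, so the overlap is no independent support for a cell type. None of these 8 is a member, and their part in the values below was not tested.

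miR-218-5p was an abundant guide and did not pass the test between the genotypes. Its level was 14221, 7523, 9058 and 7257 CPM in het 1 to 4 and 14591, 10745, 7415 and 12328 CPM in ko 1 to 4. The groups overlapped over most of their range, with het 1 and ko 1 nearly level at the top and het 4 and ko 3 nearly level at the bottom. The het mice averaged 9514 ± 3236 CPM and the ko mice 11270 ± 3016 CPM (SD, n = 4 each). On the log2(CPM + 1) scale the difference, ko minus het, was 0.26 (SE 0.28, 95% interval −0.36 to 0.87, limma adjusted p = 0.975 over 463 miRNAs). Among the same miRNAs 1.3% were called, and 0 of the 2 members tested were among them, with unadjusted p-values of 0.382 and 0.828 where 7.34% of all miRNAs had one under 0.05. A scaling that centred each library on its median moved the difference to 0.48, and edgeR on the recovered reads, which changes both scaling and model, gave 0.39. The median difference of all miRNAs was −0.09 in the deposited CPM, 0.13 after centring and 0.06 with edgeR. Without the 2 deepest libraries the difference of miR-218-5p was 0.06. The highest library was 2.01 times the lowest, and the coefficient of variation over the 8 mice was 29.3%. Fewer cells of a type and less RNA per cell cannot be told apart in bulk tissue.

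By mean level, miR-218-5p stood at rank 25 of 895 miRNAs, at 10392 ± 3044 CPM over the 8 libraries. The next above was miR-101a-3p, at 10539 ± 2485 CPM, and the next below was let-7e-5p, at 10213 ± 1981 CPM, so that these neighbours did not differ from it beyond their spread. All members together made up 1.05% of the deposited CPM, as a mean over libraries, and 99.3% of that came from miR-218-5p. The libraries differed in how levels followed base composition. Across the 463 miRNAs, Spearman's rho between GC content and the deviation of a library from the mean of its genotype was 0.42 in het 4 and 0.52 in ko 3, and −0.46 in ko 2. miR-218-5p, with a GC content of 38.1% against a median of 47.6%, was lowest in het 4 and ko 3. Its highest libraries, het 1 and ko 1, had rho of −0.15 and −0.14, and in ko 2 it lay at 10745 CPM. The part of composition in its spread was not tested.

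The passenger arms were scarce, and miR-218-2-3p varied more between mice than the guide, with a coefficient of variation of 74.5%. miR-218-2-3p was at 92.7, 29.6, 24.5 and 87.9 CPM in het 1 to 4 and at 26.6, 33.1, 32.7 and 142.1 CPM in ko 1 to 4. Het 1, het 4 and ko 4 stood above the other 5 libraries, which lay within 10 CPM of each other. The group means were almost equal, 58.64 ± 36.6 CPM for het against 58.61 ± 55.7 CPM for ko. The log2 difference was −0.13 (SE 0.58, 95% interval −1.39 to 1.13, limma adjusted p = 0.975). Its sign turned to 0.09 with median centring, and to 0.17 and 0.20 with edgeR and DESeq2 on recovered reads. Without ko 4, the highest library, the log2 difference was −0.67, and without the 2 deepest libraries it was 0.46.

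miR-218-1-3p was the scarcest member, at 15.4, 13.1, 3.49 and 8.26 CPM in het and 6.49, 10.3, 10.3 and 10.8 CPM in ko. Its mean of 9.77 CPM lay under the 10 CPM required for the test. It ranked 464 of 895 miRNAs, with 8 to 206 reads per library, and miR-218-2-3p ranked 329. The ko values lay within the range of het. With the requirement lowered to 1 CPM its log2 difference was 0.06 (SE 0.52, 95% interval −1.04 to 1.16, limma adjusted p = 0.992). It was −0.32 without het 3 and 0.30 without het 1.

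**Figure D1:**
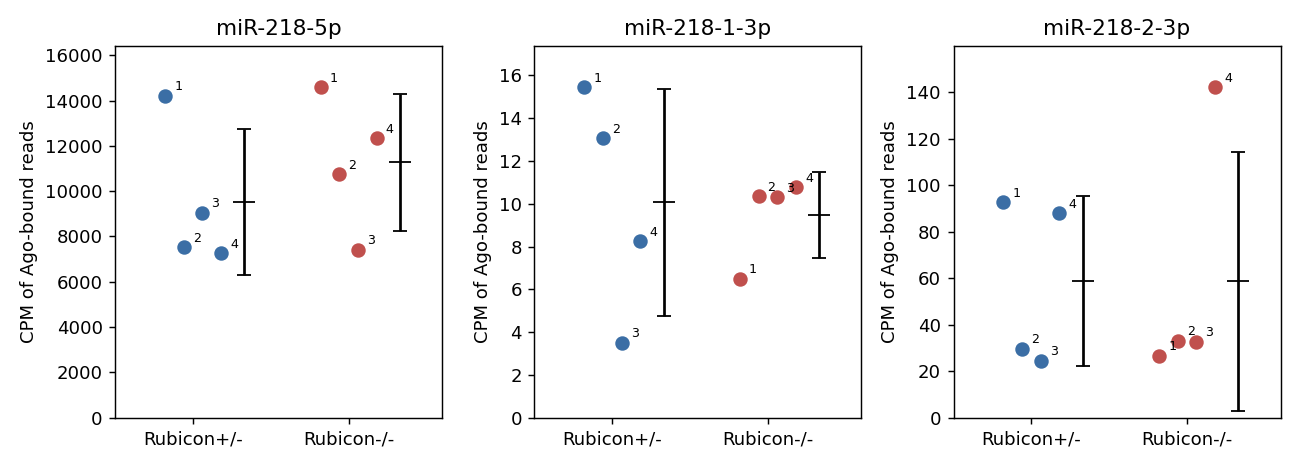
Level of each member in CPM (vertical axes start at 0) in the 4 Rubicon+/- and 4 Rubicon-/- libraries. Points are single mice with their replicate numbers, and the bar beside them is the mean ± SD. The groups overlap for all 3 members, and ko 4 stands alone at 142.1 CPM for miR-218-2-3p.

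The 3p arms held 0.754%, 0.564%, 0.308% and 1.31% of the member CPM in het 1 to 4 and 0.226%, 0.403%, 0.576% and 1.22% in ko 1 to 4. Het 4 and ko 4, 1 library of each genotype, had the highest shares. No difference between the groups was detected, at 0.733% ± 0.424 in het and 0.608% ± 0.436 in ko (exact two-sided permutation test over all 70 splits, p = 0.657, adjusted p = 0.771 over 6 measures). The smallest p these 4 against 4 libraries allow is 0.0286, before adjustment over the 6 measures. In the other 179 hairpins with both arms named and at least 100 CPM, the minor arm held a median of 3.31% to 4.83% depending on the library. Over all libraries, the 3p share of miR-218, 0.654%, was higher than the minor arm share of 22.9% of those hairpins, whose median was 4.24%. Counting error alone gave 95% Wilson intervals up to 0.397 percentage points wide for a single library.

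The 2 hairpins did not give the same picture through extended reads of the guide and through the passenger arms. miR-218-5p itself is identical in both, but reads of 23 nt or more run into loop bases that differ between the hairpins. Of 30168 such reads that matched only 1 hairpin, 866 matched Mir218-1, which is 2.87% (95% Wilson interval 2.69% to 3.07%). Of 1828 reads of the 3p arms, 350 were named miR-218-1-3p, which is 19.1% (17.4% to 21.01%). ko 2 alone gave 16415 of the 30168 and 866 of the 1828 reads. These pooled intervals cover counting error only and are narrower than the spread between libraries. The share of Mir218-1 in the 5p reads ranged from 1.80% to 3.88% over the libraries, and its share in the 3p reads from 7.05% to 30.6%. The 3p share was the higher in 8 of 8 libraries, and the intervals did not overlap in 7 of them, the exception being ko 4 (2.22% to 5.60% and 3.98% to 12.2%). A base added to a 22 nt read without a template cannot be told apart from hairpin sequence where it happens to match. Between genotypes the share of miR-218-1-3p among 3p reads was 16.5% ± 9.72 in het and 18.6% ± 7.97 in ko (exact permutation p = 0.771, adjusted p = 0.771).

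**Figure D2:**
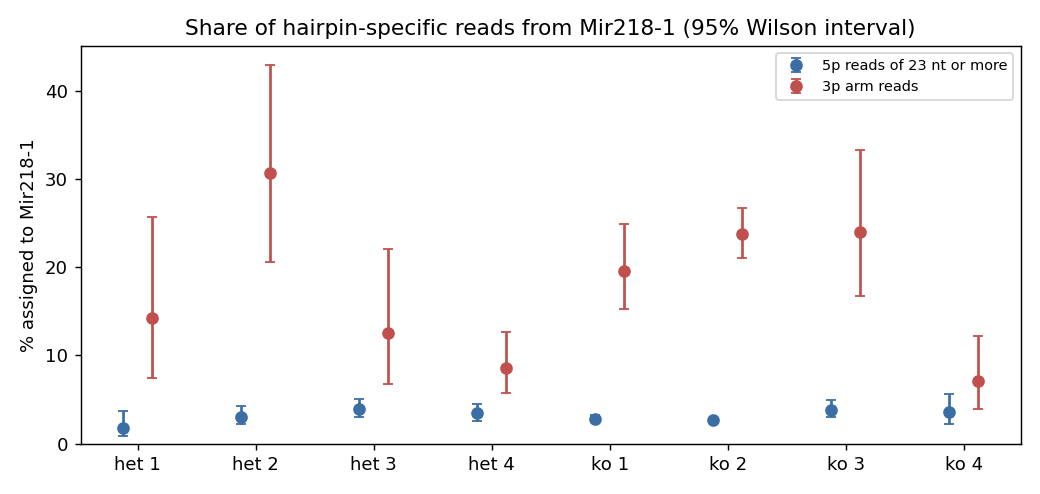
Percentage of reads assigned to Mir218-1 in each library, among miR-218-5p reads of 23 nt or more that match only 1 hairpin and among reads of the 3p arms. Points are library values and bars are 95% Wilson intervals, which cover counting error only. The 3p value lies above the 5p value in all 8 libraries.

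Most miR-218-5p reads were the annotated 21 nt form, and most of the remainder differed at the 3′ end. The 6 most abundant reads are shown with bases beyond the annotated end in capitals. The A and U that close the third and the last of them are in neither hairpin.
21 nt: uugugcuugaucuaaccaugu
22 nt: uugugcuugaucuaaccauguG
23 nt, A: uugugcuugaucuaaccauguGA
23 nt, hairpin: uugugcuugaucuaaccauguGG
20 nt: uugugcuugaucuaaccaug
23 nt, U: uugugcuugaucuaaccauguGU

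The 21 nt read had a mean of 6705 CPM and made up 64.5% of miR-218-5p. It was at 10367, 3832, 5263 and 4669 CPM in het and at 9379, 6705, 4551 and 8873 CPM in ko, with het 1, ko 1 and ko 4 highest, the same 3 libraries as for the sum. The 22 nt read, with a mean of 858.4 CPM (8.26%), ranged from 594.0 to 1049 CPM in het and from 627.3 to 1198 CPM in ko. The A-tailed 23 nt read followed at 687.4 CPM (6.61%), with 762.6, 584.6, 580.4 and 380.0 CPM in het and 1008, 792.8, 599.0 and 791.7 CPM in ko. Het 1 lay within the range of ko, and the other 3 het libraries lay below all ko libraries. The log2 difference of the A-tailed read was 0.49 (SE 0.30, limma adjusted p = 0.973 over 3299 reads). The hairpin-matched 23 nt read, the 20 nt read and the U-tailed 23 nt read had means of 556.5, 432.0 and 357.0 CPM, and their log2 differences were 0.09, −0.27 and 0.50. Of the 202 member reads 20 reached the 10 CPM required, 0 of them passed limma's adjusted p, and 0.485% of all 3299 reads passed. At an unadjusted p under 0.05 there was 1 of the 20 member reads, against 5.3% of all reads, and edgeR's test found 0. The log2 difference was above 0 for 13 and below 0 for 7 of these 20 reads, with a median of 0.21 against −0.02 over all reads. Without ko 1 it was above 0 for 11 and below 0 for 9, with a median of 0.12. Without het 3 these were 15 and 5, with a median of 0.33.

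By 3′ end, 65.0% of miR-218-5p CPM had the annotated end, from 51.2% in het 2 to 73.4% in het 1. Bases in neither hairpin closed 13.8% of the CPM, a class that ranged from 10.98% to 16.04%. Tails of A alone made up 9.44% and tails of U alone 3.95%, counting also those after a shortened end. Reads extended by 1 nt on the hairpin made up 8.30%, those extended further 6.15% and shortened reads 5.91%. Het 2 and het 3 had the most shortened reads, 9.34% and 9.87%, against 4.005% to 6.245% in the other 6 libraries. The share of miR-218-5p reads that matched no miR-218 hairpin over their whole length was 11.7%, 16.6%, 14.8% and 14.3% in het and 15.6%, 16.4%, 17.2% and 14.7% in ko. Its means were 14.4% ± 2.05 and 16.0% ± 1.04 (exact permutation p = 0.229, adjusted p = 0.686). Reads averaged 21.42 ± 0.09 nt in length in the het mice and 21.45 ± 0.08 nt in the ko mice (exact permutation p = 0.657, adjusted p = 0.771). Among 463 miRNAs, the share of reads off the hairpins was at the median (14.9%), while the share of the leading read, 64.5%, was higher than in 82.9% of them.

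**Figure D3:**
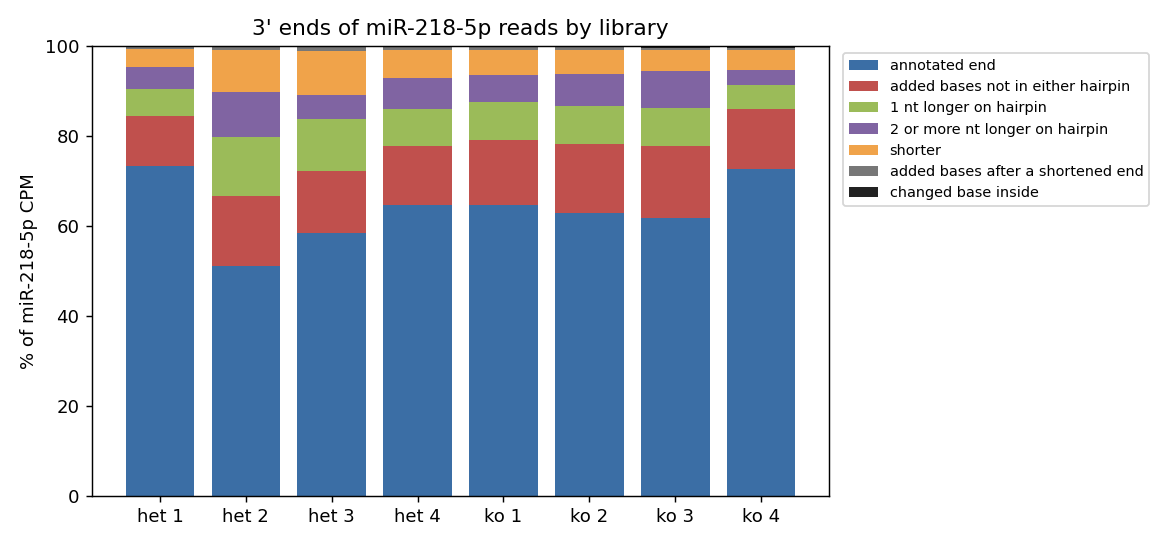
Percentage of miR-218-5p CPM by 3′ end class in each library, stacked to 100%. The annotated end holds between 51.2% and 73.4%, and added bases that are in neither hairpin are the next largest class over all libraries.

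The 5′ end was far more uniform. The annotated start with unchanged first bases held 99.1% of miR-218-5p CPM, from 98.7% in ko 4 to 99.5% in het 4. Reads 1 nt shorter held 0.301%, reads with a changed base among the first 8 held 0.274% and reads 1 nt longer by a base in neither hairpin held 0.218%. The 1 nt shorter reads ranged from 0.0549% in het 2 to 0.584% in het 1, and those longer by an added base from 0.0879% in het 4 to 0.532% in ko 4. Reads with any seed other than UGUGCU, through a shifted start or a changed base, were 0.882%, 0.594%, 0.742% and 0.398% of miR-218-5p in het and 0.735%, 0.879%, 0.742% and 1.07% in ko. The means were 0.654% ± 0.207 and 0.857% ± 0.158, a difference within the spread (exact permutation p = 0.229, adjusted p = 0.686). Reads outside its leading seed made up 0.788% of miR-218-5p, against a median of 3.32% over 463 miRNAs, of which 14.04% had a lower share.

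**Figure D4:**
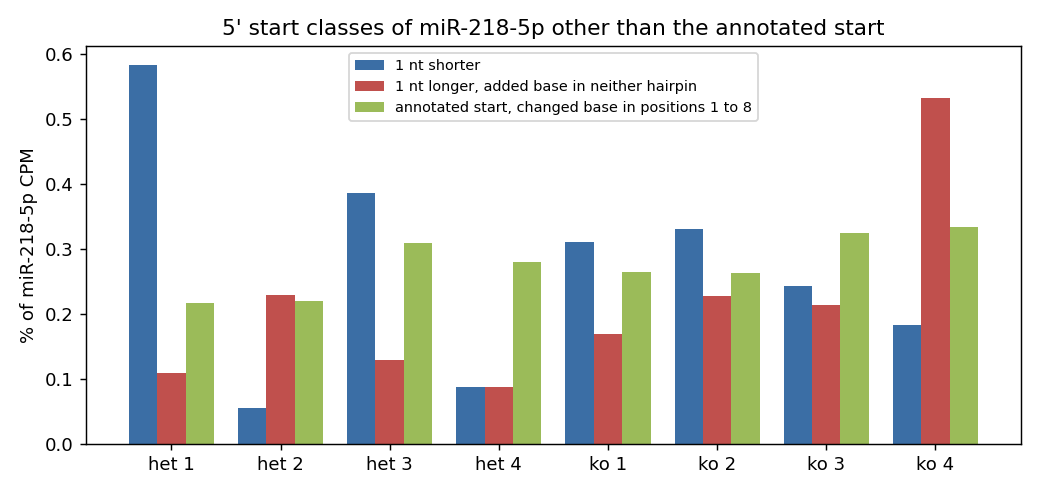
Percentage of miR-218-5p CPM in the 3 largest classes other than the unchanged annotated start, by library. Bars are library values, and the class with an added 5′ base is highest in ko 4, at 0.532%.

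The passenger arm miR-218-2-3p was less exact at its start. Its leading reads are shown with bases 2 to 8 in capitals, beside those of miR-218-1-3p.
miR-218-2-3p, 22 nt from the annotated start: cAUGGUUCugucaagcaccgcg
miR-218-2-3p, 22 nt, 1 base later: aUGGUUCUgucaagcaccgcgu
miR-218-1-3p, 21 nt: aAACAUGGuuccgucaagcac
miR-218-1-3p, 24 nt: aAACAUGGuuccgucaagcaccau
The closing u of the later-start read is in neither hairpin.

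The annotated start gave the seed AUGGUU, with 67.9% of miR-218-2-3p CPM, and the start 1 base later gave UGGUUC, with 32.1%. This share of the later start was higher than the share outside the leading seed in 87.9% of the 463 miRNAs. It ranged from 13.95% in het 2 to 47.6% in het 3. The read from the annotated start was at 54.1, 20.6, 5.82 and 21.03 CPM in het and at 11.5, 11.6, 10.7 and 50.9 CPM in ko. The read from the later start was at 0, 0.688, 2.33 and 23.3 CPM in het and at 2.93, 4.07, 5.59 and 14.7 CPM in ko, where the 0 in het 1 allows up to 5.79 CPM at 3 reads. In miR-218-1-3p, 87.9% of the CPM kept the annotated seed AACAUG.

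The members used 19 different 6mer seeds, of which 5 carried at least 0.1% of their CPM and together 99.7%. The seed of the guide, UGUGCU, held 98.6% of the member CPM, and 98.7% of all CPM with this seed in the table came from miR-218-5p. No other named miRNA carried it, and the rest had no mature name. AUGGUU (0.381% of the members' CPM) was shared with miR-299a-5p at 0.294 CPM, and GUGCUU, the seed of reads 1 nt shorter (0.299%), with miR-7008-3p at 0.560 CPM and miR-17-5p at 0.0694 CPM. UUGUGC, the seed of reads 1 nt longer (0.265%), came from miR-218-5p alone. UGGUUC (0.187%) was shared with shifted reads of miR-26a-5p at 5.18 CPM, and 77.7% of it came from the members. Seed UUGUGC was at 21.2, 22.7, 14.4 and 7.51 CPM in het and at 30.2, 31.2, 19.3 and 75.4 CPM in ko. Of the ko libraries only ko 3 lay within the range of het. Its log2 difference was 1.13 (SE 0.46, 95% interval 0.14 to 2.11, unadjusted p = 0.0279), and with limma's adjusted p of 0.843 over 990 seeds it did not pass. Of the 5 seeds 0 passed, where 0.303% of all 990 seeds did, and 1 of the 5 had an unadjusted p under 0.05 against 5.76% of all seeds. The log2 difference of UUGUGC was 0.75 without ko 4 (unadjusted p = 0.107), 0.82 without het 4 (0.0969), 1.10 without het 3 (0.0525) and 1.28 without the 2 deepest libraries (0.0592). The differences of the other 4 seeds lay between −0.29 and 0.33.

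**Figure D5:**
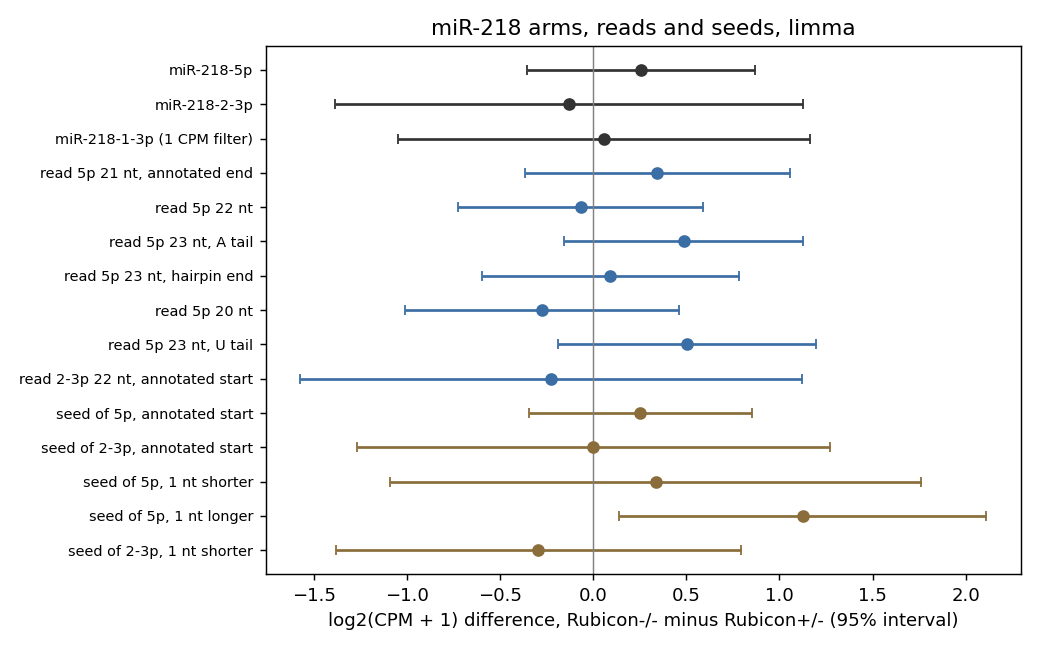
Difference in log2(CPM + 1), ko minus het, with its 95% interval from limma, for the members, the named reads that reached 10 CPM and the 5 seeds. The seed of reads 1 nt longer is the one entry whose interval leaves out 0, and its adjusted p was 0.843. The last seed includes the reads of miR-26a-5p that carry it.

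In the deposited 6mer seed viability scores, the mean viability of 3 mouse cell lines after transfection of a small RNA with that seed, the guide seed UGUGCU stood at 72.2. The shifted seeds GUGCUU and UUGUGC scored 58.5 and 65.2, both lower, and the passenger seeds AUGGUU and UGGUUC scored 83.5 and 92.9, both higher. Weighted by CPM, the members averaged 72.24 ± 0.08 in het and 72.22 ± 0.06 in ko (exact permutation p = 0.543, adjusted p = 0.771). The corresponding mean over all reads of the table was 56.4 ± 0.775 (SD over 8 libraries), and 19.2% of all reads carried a seed with a score above that of UGUGCU. The mean of the members was highest in het 4 and ko 4, at 72.36 and 72.30, the libraries with the highest 3p shares.

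The miRNAs whose log2 levels followed miR-218-5p most closely, among 277 others that averaged 100 CPM or more, were miR-592-5p (Pearson r = 0.86), miR-340-5p (r = 0.83), miR-30e-3p (r = 0.74), miR-30a-3p (r = 0.73) and miR-9-5p (r = 0.71). These are descriptions over 8 libraries that share depth and composition. miR-592-5p was at 345.6, 147.2, 101.3 and 138.2 CPM in het and 248.4, 233.6, 98.0 and 255.7 CPM in ko. Its highest library was het 1, whereas that of miR-218-5p was ko 1. All 5 had a GC content below the median of 47.6%, from 27.3% in miR-340-5p to 45.5% in miR-30a-3p. Of 25 other miRNAs that lie in introns of protein-coding genes, among them miR-340-5p and miR-128-3p, all 25 were tested and 0 passed limma's adjusted p, with 2 at an unadjusted p under 0.05, where 1.3% and 7.34% of all 463 miRNAs met these limits. Of these 25, 13 had a log2 difference above 0 and 12 below, with a median of 0.01 against −0.09 over all 463 miRNAs. Their sum ranged from 144753 to 199291 CPM in het and from 169392 to 200296 CPM in ko.

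The hosts and receptors were nearly absent from the table as mRNA fragments. Slit2 had 3 sequences with a mean of 1.15 CPM, seen in het 2, ko 1 and ko 2, and Robo4 had 1 sequence, seen in het 2 and ko 3. No fragment was named Slit1, Slit3, Robo1, Robo2 or Robo3. An Argonaute library does not measure host transcript levels, so no host comparison was made.

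A further 147 sequences matched a miR-218 hairpin by the table's own annotation but had no mature name, and they summed to a mean of 167.0 CPM, 1.597% of the members' level. Of these, 122.1 CPM carried the seed UGUGCU. Of the sequences 38, with 105.5 CPM, were 21 nt long and differed from miR-218-5p by 1 base. The largest such changes, counted from 1 at the 5′ end of miR-218-5p with the annotated base first, were U8C at 13.6 CPM and U7C at 10.6 CPM, against a level of 10392 CPM for the named guide. These sequences ranged from 113.4 CPM in het 4 to 214.3 CPM in het 1 and are not counted among the members.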

How the data were processed

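Argonaute-bound small RNAs of 8 mouse brains (4 het, 4 ko, grouped by the sample titles, 1 animal per library) were analysed from 1 table of read sequences. Per the labels and the methods of the study, adapters were trimmed (Trim Galore, version not given), and the authors' SPOROS pipeline removed rare and artificial sequences, matched the rest to small RNA lists by BLAST, and scaled each library to CPM of 1000000 reads. The genome build was not given in the sources used here. The deposited table also holds a 6mer seed viability score, the authors' mean over 3 mouse cell lines, and a column of summed signal over libraries, deposited by the authors and not used.

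Whole reads were recovered by dividing CPM by the value of 1 read, and 100.0% of values above 0 came out within 0.1 of a whole number. This gave 38191202 reads in all. Intervals (Wilson, 95%) and the floor of 3 reads cover counting error only, since reads had no molecular identifiers. With 4 mice per genotype and 1 library per mouse, the p-values set differences against the spread between libraries. That spread mixes animals with dissection, library preparation and depth. No pair of libraries of a group agreed within sampling noise.

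CPM were summed by miRNA name and by seed. limma 3.58.1 (trend and robust) was run in R 4.3.3 on log2(CPM + 1) of all names, reads or seeds that averaged 10 CPM or more, with Benjamini-Hochberg adjustment over all of them and a threshold of 0.05. Fold changes on this scale understate the change of scarce sequences. Per-library measures were compared by exact two-sided permutation tests over 70 splits, adjusted over 6 measures. Alternatives were pseudocounts of 0.1 and 10, filters of 1 and 100 CPM, centring of each library on its median, edgeR 4.0.16 and DESeq2 1.42.0 on the recovered reads, a replicate block, and leaving out each library or the 2 above 5000000 reads. For the measures, reads of at least 18 nt and sequences of at least 1 CPM were the alternatives to all reads. edgeR called 4 miRNAs and DESeq2 called 9, against 6 by limma. The code was tested on simulated data. Python 3.11.15, numpy 2.4.6, scipy 1.17.1, pandas 2.3.3 and matplotlib 3.10.9 were used for the rest.

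Reads were placed on the RefSeq hairpins of GRCm38.p6, where all 3 mature names and both hairpins were found. Genes named were the 3 members, the 6 leading reads of the guide and 2 of each passenger arm, seeds with at least 0.1% of the members' CPM and the miRNAs that share them, the neighbours in rank, the 5 miRNAs of at least 100 CPM closest to the guide by Pearson's r, 25 intron-hosted miRNAs as a list, Slit and Robo fragments, and cell type markers. The oligodendrocyte, leukocyte, endothelial, erythroid and choroid plexus lists held only 2, 4, 2, 2 and 2 miRNAs. Of these 0 passed the threshold, where 1.3% of all 463 miRNAs did, so the lists do not show that cell composition was even. The log2 differences, ko minus het, were −0.86 for miR-451a and −1.07 for miR-144-3p, the erythroid pair. In the choroid plexus list they were 2.88 for miR-211-5p and −0.13 for miR-204-5p. The oligodendrocyte, leukocyte and endothelial lists each had miRNAs on both sides of 0. The members and lists were chosen with earlier results of these data known.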

Additional observations from a re-analysis of the deposited data

Results flagged for a closer look

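In 62 groups of 4 libraries, 6 held a library whose gap to its nearest neighbour exceeded the 95% critical value of Dixon's ratio, and chance gives about 1 in 20. In the ko group, ko 4 was high in miR-218-2-3p, at 142.1 CPM against 26.6 to 33.1 CPM in the other 3. Its leading read from the annotated start was at 50.9 CPM there, against 10.7 to 11.6 CPM. The seed AUGGUU that this read carries was at 103.9 CPM, against 20.6 to 22.8 CPM. In the same library 5.29% of miR-218-5p was extended by 1 nt on the hairpin, against 8.25% to 8.50% in the other ko libraries. ko 1 was low in miR-218-1-3p, at 6.49 CPM against 10.3 to 10.8 CPM, but ko 3 and ko 4 held only 24 and 11 of its reads, and Dixon's ratio takes no account of counting error. In the het group, het 4 was high in the miR-218-2-3p read that starts 1 base later, at 23.3 CPM against 0 to 2.33 CPM. Of the 62 groups several share reads, so these results are not independent of each other.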

How the results depend on the processing

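0 member names, reads or seeds passed the threshold under any alternative that was run. In the fit as reported, 1.3% of all miRNAs, 0.485% of all reads and 0.303% of all seeds passed. So few members were tested that 0 calls does not set them apart. The log2 difference of miR-218-5p stayed above 0 in all 17 alternatives, between 0.06 without the 2 deepest libraries and 0.48 with median centring. miR-218-2-3p turned from −0.13 to 0.094 with median centring, 0.17 with edgeR, 0.20 with DESeq2 and 0.46 without the 2 deepest libraries, and ranged from −0.67 to 0.17 when single libraries were left out. miR-218-1-3p turned from 0.06 to −0.0077 with a pseudocount of 10, and ranged from −0.32 without het 3 to 0.30 without het 1, with −0.0054 without ko 4. Without the 2 deepest libraries the sign also turned for the hairpin-matched 23 nt read (−0.28), the 22 nt miR-218-2-3p read (0.26), the seeds GUGCUU (−0.13) and UGGUUC (0.37), the 3p share (0.167 percentage points), the miR-218-1-3p share (−0.981 percentage points) and the mean viability (0.0155). DESeq2 turned the 22 nt guide read to 0.0027 and GUGCUU to −0.064, edgeR turned GUGCUU to −0.0013, and a pseudocount of 10 turned AUGGUU to −0.00036. Leaving out single libraries gave ranges of −0.25 to 0.059 for the 22 nt guide read, −0.063 to 0.30 for the hairpin-matched 23 nt read, −0.76 to 0.25 for the 22 nt miR-218-2-3p read, −0.55 to 0.30 for AUGGUU, −0.17 to 0.99 for GUGCUU, 0.75 to 1.39 for UUGUGC and −0.64 to 0.010 for UGGUUC. The same ranges were −0.331 to 0.0656 percentage points for the 3p share, −0.53 to 6.82 for the miR-218-1-3p share and −0.056 to 0.0126 for the mean viability. The cause of these turns was not tested. All these differences were ko minus het.

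Over all reads, 16 passed in the fit as reported, 27 with DESeq2, 9 without the 2 deepest libraries, 35 and 5 with filters of 1 and 100 CPM, and 9 to 21 with single libraries left out. Over all seeds, 3 passed, against 1 with a pseudocount of 0.1, 1 with edgeR, 5 with DESeq2 and 0 to 6 with single libraries left out. With 0 seeds called without het 2, 36 had an unadjusted limma p under 0.05. The filter of 100 CPM left no passenger arm to test. Samples with the same replicate number shared only that number, with correlations of their deviations of 0.04, 0.29, −0.18 and 0.25. With the replicate block 10 miRNAs, 26 reads and 4 seeds passed, and the difference of miR-218-5p was 0.26 as before. Depth limits the passenger arms, with 8 to 206 reads of miR-218-1-3p in a library.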
